A study of Mus musculus with 18 samples.

Results

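The 10 genes described here encode the proteins with which a cell recognises double-stranded RNA or DNA, the adaptors they act through, and Adar, an enzyme that edits double-stranded RNA. They were chosen by name: Ddx58, Ifih1, Dhx58, Mavs, Eif2ak2, Adar, Zbp1, Tlr3, Mb21d1 and Tmem173, out of 29562 genes listed in any table of the study. The sgMyc table held all 10, under the newer symbols Rigi, Cgas and Sting1 for Ddx58, Mb21d1 and Tmem173. The sgNAT10 mRNA table held 9 (not Zbp1), that of ribosome footprints held 8 (neither Zbp1 nor Dhx58) and the list of acetylated RNA peaks held 1 (Adar).

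TC1, a mouse cell line labelled as fibrosarcoma, was the source of every library. One mRNA set held 2 wild type (WT) libraries and 2 from cells carrying a guide RNA against Nat10 (sgNAT10), and another held 3 WT libraries and 3 from cells carrying a guide against Myc (sgMyc). Ribosome-protected fragments (Ribo-seq) were sequenced in 2 WT and 2 sgNAT10 libraries, and RNA precipitated for acetylation (acRIP-seq) in 1 precipitate and 1 input library of each of WT and sgNAT10. The labels name no control guide in any of them. They leave unsaid whether an edited line was a clone or a pool, and name no separate cultures behind the replicates, so the p-values measure the spread between these libraries, which may be technical. Levels are in FPKM, the fragments counted scaled to gene length and to the library's total.

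As background, RIG-I and MDA5, the products of Ddx58 and Ifih1, are helicases that bind double-stranded RNA in the cytosol and signal through the mitochondrial protein MAVS to switch on type I interferon. Interferon in turn raises transcription of most of the RNA sensors themselves, through a promoter element called the interferon-stimulated response element (ISRE). cGAS, the product of Mb21d1, binds DNA in the cytosol and makes a cyclic dinucleotide that activates STING, the product of Tmem173. Adar converts adenosine to inosine in the cell's own double-stranded RNA, which keeps that RNA from being sensed by MDA5 and from triggering ZBP1 or the kinase PKR.

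Because several sensor genes moved together in the sgMyc libraries described further on, their promoters were searched for the ISRE core (GAAA, any 2 bases, GAAA) on both strands, in windows of 250 bases before to 50 bases after the start site (RefSeq, build GRCm38.p6). Windows were at hand for 7 of the 10 genes, all but Dhx58, Zbp1 and Tmem173. The core was found in 3 of these 7, Ddx58, Ifih1 and Eif2ak2, against 3.99% of all 27025 genes with a window. Since most RNA sensors are known to answer interferon through this element, a higher share followed from the choice of genes. No exact match was found for Mavs, Adar (3 windows), Tlr3 or Mb21d1. Of these, Adar (6.90 and 6.93 times the WT mean) and Tlr3 (6.21 and 6.90 times) were also far higher in sgMyc replicates 1 and 2. Only exact matches were counted. Adar (gaaagtgaac) and Tlr3 (tttcactttg, opposite strand) each hold a stretch 1 base off the core. Such near matches were not counted in any gene. Each of the 3 matches also fitted a longer form with a C added at the 3′ end, which contains the core and occurs in 0.944% of genes. A Myc-type E-box, CACGTG, occurred in 0 of the 7 and in 8.09% of all genes. The stretches below are shown because they carry the 3 matches, in capitals, beside Mb21d1, whose window has none. All 4 genes lie on the minus strand and are written 5′ to 3′ along the gene, from chr4:40239796-40240075 for Ddx58, chr2:62646206-62646235 for Ifih1 (30 bases around its match only), chr17:78882543-78882822 for Eif2ak2 and chr9:78443208-78443487 for Mb21d1.
Ddx58: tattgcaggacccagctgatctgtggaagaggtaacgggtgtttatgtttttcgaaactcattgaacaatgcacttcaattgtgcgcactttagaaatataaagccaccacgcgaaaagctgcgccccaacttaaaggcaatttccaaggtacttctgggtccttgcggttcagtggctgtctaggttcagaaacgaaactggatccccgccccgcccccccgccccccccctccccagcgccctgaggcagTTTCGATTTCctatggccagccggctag
Ifih1: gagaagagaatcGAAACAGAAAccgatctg
Eif2ak2: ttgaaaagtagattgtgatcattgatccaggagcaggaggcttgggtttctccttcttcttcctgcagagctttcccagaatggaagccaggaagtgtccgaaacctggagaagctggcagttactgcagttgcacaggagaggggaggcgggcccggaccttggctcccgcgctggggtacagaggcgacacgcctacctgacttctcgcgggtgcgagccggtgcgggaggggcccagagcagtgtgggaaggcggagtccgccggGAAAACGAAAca
Mb21d1: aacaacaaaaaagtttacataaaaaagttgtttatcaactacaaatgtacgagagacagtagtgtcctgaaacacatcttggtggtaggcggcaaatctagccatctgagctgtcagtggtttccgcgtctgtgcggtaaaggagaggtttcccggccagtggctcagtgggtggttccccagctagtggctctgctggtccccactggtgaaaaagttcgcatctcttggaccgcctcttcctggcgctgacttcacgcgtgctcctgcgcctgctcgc
In Ddx58 the match lies on the opposite strand, so the capitals show its reverse complement. The first base of the match lay 2 bases past the start site in Ddx58, 18 in Eif2ak2 and 32 in Ifih1, so all 3 sat just inside the transcript. These are matches of letters and not measured binding sites.

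The sgMyc libraries held 51875052 to 65768024 counts each, and whole reads recovered from the FPKM values came to 15577959 to 20217083 in the sgNAT10 mRNA libraries and 1629938 to 3374535 in Ribo-seq. Each targeted gene was lower in the libraries labelled with its guide. Nat10 had 5.36 and 5.30 FPKM of mRNA in WT and 3.59 and 3.95 in sgNAT10 (log2 fold change -0.41, adjusted p = 0.00266), and Myc had 64.8, 61.6 and 70.8 in the WT libraries of its set and 21.1, 20.9 and 34.1 in sgMyc (-1.37, adjusted p = 0.011; -1.61 without sgMyc replicate 3, adjusted p = 5.75e-08). The other target was read in each set too: Myc had 115 and 117 FPKM in WT and 40.0 and 40.9 in sgNAT10 (-1.49, adjusted p = 9.41e-06), and Nat10 had 5.01, 4.86 and 5.13 in WT and 3.52, 3.31 and 6.27 in sgMyc, which overlapped (-0.19, adjusted p = 0.675). Without sgMyc replicate 3, its highest library, Nat10 was called lower (-0.52, SE 0.062, adjusted p = 9.98e-05). A limma test of the difference between the edits called neither Nat10 (0.21, adjusted p = 0.49) nor Myc (0.12, adjusted p = 0.682). These tests thus did not separate the 2 labels by the mRNA levels of the targets, which does not show that the levels were alike. One library stood apart. sgMyc replicate 3 differed by 1 or more on the log2(FPKM + 1) scale in 721 genes from sgMyc replicate 1 and in 717 from replicate 2, while replicates 1 and 2 differed in 34 and pairs of WT libraries in 41 to 55. Of 158 genes at least 2 log2 units above the WT mean in both of the other sgMyc libraries, 45 were at least 1 unit above it in replicate 3, and of 42 genes as far below, 40 were at least 1 unit below it. The sgMyc values of the 10 genes are therefore given per library and their tests also without replicate 3. The p-values without it rest on 2 sgMyc libraries that differed in fewer genes than any pair of WT libraries. They leave out the spread that replicate 3 adds, so they are no separate support. Of the fibroblast markers Col1a2 ran from 12.7 to 92.6 FPKM over the mRNA libraries, while Col1a1 stayed at 0.0964 to 0.46 and the epithelial keratin Krt8 at 0.0642 to 0.819.

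**Figure D1:**
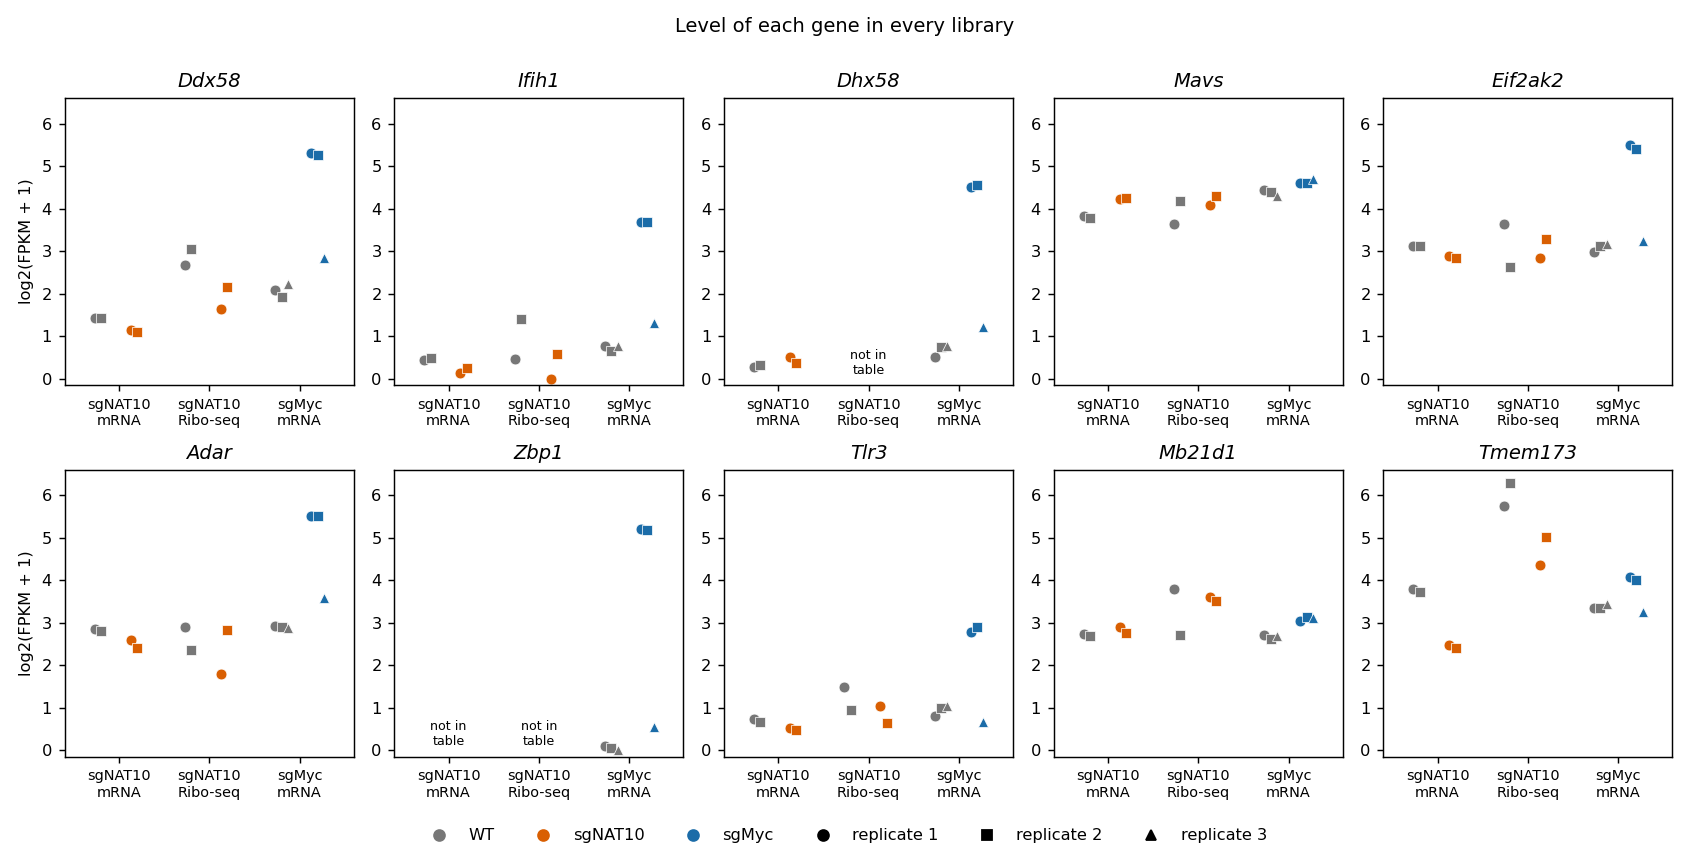
Level of each of the 10 genes in every library, as log2(FPKM + 1) on a linear axis; grey is WT, orange sgNAT10 and blue sgMyc, and the marker shape gives the replicate number. In 7 genes (Ddx58, Ifih1, Dhx58, Eif2ak2, Adar, Zbp1 and Tlr3) sgMyc replicates 1 and 2 lie far above all other libraries while replicate 3 lies closer to WT, and Tmem173 is lower in sgNAT10 than in WT in both assays.

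In unedited cells mRNA of Mavs and Tmem173, the proteins that pass the signal on, stood above that of the sensors. Over the 3 WT libraries of the sgMyc set, Mavs had the highest mean of the 10, 19.8 FPKM, followed by Tmem173 at 9.40, Eif2ak2 at 7.56, Adar at 6.46, Mb21d1 at 5.40 and Ddx58 at 3.24, with no overlap between neighbours in that order. Tlr3 (0.944), Ifih1 (0.658) and Dhx58 (0.605) followed, of which Ifih1 and Dhx58 overlapped, and Zbp1 was lowest at 0.038. The order was alike in the WT libraries of the sgNAT10 set, where Mavs (12.8 to 13.1) and Tmem173 (12.3 to 12.8) overlapped at the top and Ifih1 (0.363 to 0.40) and Dhx58 (0.209 to 0.250) stood at the bottom. FPKM is a level per length of gene, so these are comparisons between genes of a library, and the sets were normalized separately.

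The sgMyc comparison asked what happens to these genes when Myc, a transcription factor that drives growth, is targeted. The RNA sensors and the interferon-inducible genes around them were far higher in sgMyc replicates 1 and 2, from 5.50 times the WT mean (Eif2ak2, replicate 2) to 952 times (Zbp1, replicate 1), while the adaptor Mavs, the DNA sensor Mb21d1 and its partner Tmem173 reached at most 1.71 times. With all 6 libraries edgeR's quasi-likelihood test (3 against 3) called 6 of the 10 higher and none lower: Zbp1, Dhx58, Ifih1, Ddx58, Adar and Mb21d1. Zbp1, with 15, 10 and 0 counts in WT, entered the test through its sgMyc counts and could hardly have been called lower. Of all 16794 genes tested 16.0% were called, and 7.11% of all tested were called higher. The calls moved with the tool. DESeq2 called 8 of the 10 members, all higher, and limma on log2(FPKM + 1) called 1, Mb21d1. Of all genes DESeq2 called 3792 of the 28738 fitted, 2090 of them higher, and limma 1835 of 11907, 753 of them higher. Of all calls 44.5% were higher with edgeR, 55.1% with DESeq2 and 41.0% with limma. The median log2 fold change was 2.27 over the 10 genes and -0.028 over all genes tested. Without replicate 3, and so without the spread it adds, all 10 were called higher, where 53.6% of all genes were called and 26.6% were called higher. The calls rested on few libraries. Without WT replicate 1, 2 or 3 in turn 0 of 10 passed, with 8, 8 and 7 at an unadjusted p under 0.05. Without sgMyc replicate 1 or replicate 2 only Mb21d1 passed. Those fits called 680 to 1225 of all genes. In 8 of the 10 every sgMyc library lay above every WT library, as in 16.2% of all genes tested; the groups did not overlap, in either direction, in 37.9%.

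The 3 RNA helicases shared one pattern, high in replicates 1 and 2 and modestly above WT in replicate 3. Ddx58 (chr4:40203777-40239825), which encodes RIG-I, a sensor of short RNA with a 5′ triphosphate, had 3.28, 2.77 and 3.67 FPKM in WT and 38.4, 37.5 and 6.19 in sgMyc. All sgMyc libraries were above WT, replicate 3 at 1.91 times the WT mean and the others at 11.8 and 11.6 times. The log2 fold change was 3.06 (SE 0.650, adjusted p = 0.0265), and 3.57 (SE 0.0900, adjusted p = 5.12e-09) without replicate 3. Ifih1 (chr2:62595618-62646255), whose product MDA5 binds long double-stranded RNA, had 0.710, 0.561 and 0.704 FPKM in WT against 11.8, 11.8 and 1.48 in sgMyc. The groups did not overlap, and replicate 3 was 2.25 times the WT mean (log2 fold change 3.64, SE 0.749, adjusted p = 0.0239; 4.18 without replicate 3, adjusted p = 1.52e-09). Dhx58 (chr11:100694884-100704271) encodes LGP2, which lacks the signalling domains of the other helicases and modulates them. It had 0.418, 0.691 and 0.707 FPKM in WT and 21.8, 22.5 and 1.34 in sgMyc, 36.0, 37.2 and 2.21 times the WT mean. Its log2 fold change was 4.61 (SE 1.02, adjusted p = 0.0296), and 5.20 without replicate 3 (adjusted p = 1.42e-08).

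**Figure D2:**
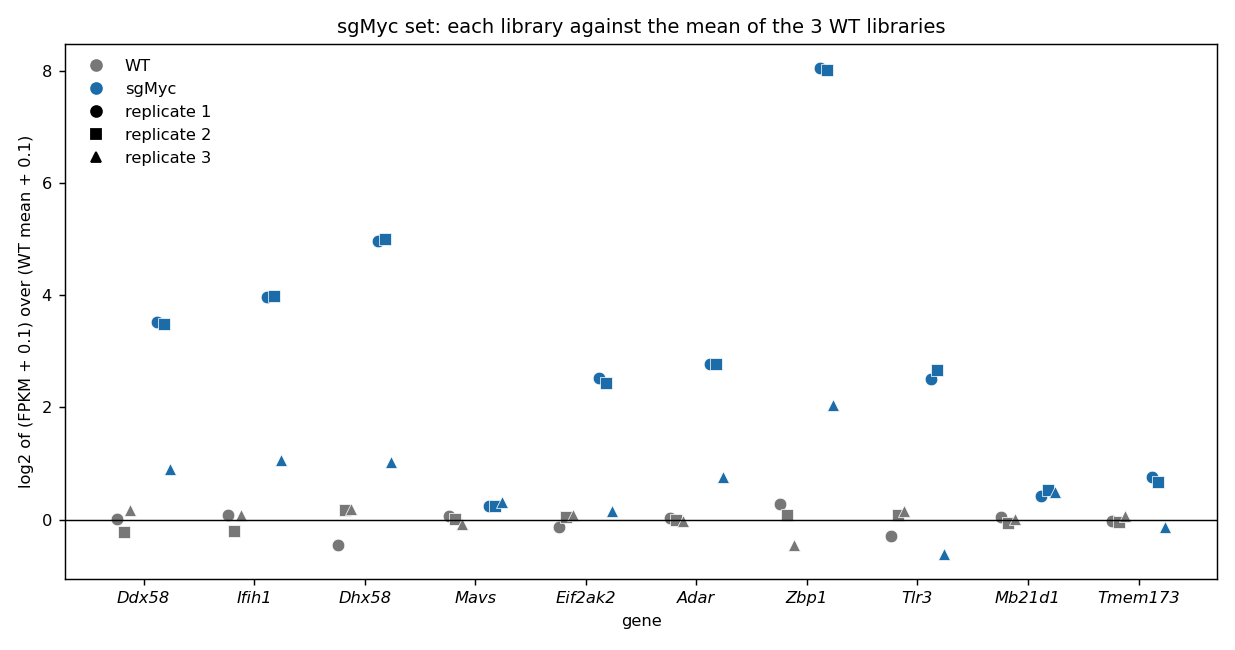
Each library of the sgMyc set against the mean of its 3 WT libraries, as log2 of (FPKM + 0.1) over (WT mean + 0.1), with grey for WT, blue for sgMyc and shapes for the replicate number. Replicate 3 (triangles) falls between WT and the other sgMyc libraries in 6 genes, below WT in Tlr3 and Tmem173, and beside the other sgMyc libraries in Mavs and Mb21d1.

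Mavs (chr2:131234063-131248025), the adaptor that RIG-I and MDA5 share, behaved differently. It had 20.8, 19.9 and 18.8 FPKM in WT and 23.4, 23.5 and 24.9 in sgMyc. The groups did not overlap and replicate 3 was the highest library, but the difference of 0.27 on the log2 scale did not pass (SE 0.0776, adjusted p = 0.0636) and did so without replicate 3 (0.27, SE 0.0478, adjusted p = 0.00112).

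Eif2ak2 (chr17:78850504-78882572) encodes PKR, a kinase that binds double-stranded RNA and then blocks translation by phosphorylating eIF2α. Its 6.92, 7.77 and 8.0 FPKM in WT stood against 44.0, 41.6 and 8.49 in sgMyc. Replicate 3 exceeded the highest WT library only slightly, at 1.12 times the WT mean, and the log2 fold change of 2.04 did not pass (SE 0.561, adjusted p = 0.0565); without replicate 3 it was 2.53 (SE 0.0582, adjusted p = 2.76e-09). Adar (chr3:89714469-89753455), the editing enzyme that dampens sensing of the cell's own RNA, had 6.61, 6.45 and 6.32 FPKM in WT and 44.6, 44.8 and 11.0 in sgMyc. It was the member with the highest level of the 10 in sgMyc replicate 1 and replicate 2, and replicate 3 was 1.71 times the WT mean. Adar rose by a log2 fold change of 2.36 (SE 0.498, adjusted p = 0.0259), and of 2.82 without replicate 3 (SE 0.0327, adjusted p = 3.65e-11).

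Zbp1 (chr2:173206612-173218959) encodes a sensor of left-handed (Z-form) RNA and DNA that can start necroptosis, a lytic form of cell death. It had 15, 10 and 0 counts in the WT libraries and 8282, 7978 and 122 in sgMyc, or 36.2, 35.4 and 0.466 FPKM in sgMyc. All sgMyc libraries were above WT, and replicates 1 and 2 were 77.7 and 76.0 times replicate 3. The log2 fold change was 9.22 (SE 1.89, adjusted p = 0.0238), and 9.84 without replicate 3 (SE 0.226, adjusted p = 2.76e-09). Tlr3 (chr8:45395665-45411075), the receptor for double-stranded RNA in endosomes, had 0.754, 1.01 and 1.07 FPKM in WT and 5.86, 6.51 and 0.578 in sgMyc. Replicate 3 was below every WT library, and the groups overlapped. The log2 fold change of 2.17 did not pass (SE 0.786, adjusted p = 0.117), and was 2.74 without replicate 3 (SE 0.135, adjusted p = 3.39e-07).

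The DNA-sensing pair moved little. Mb21d1 (chr9:78430518-78443237), which encodes cGAS, had 5.54, 5.19 and 5.48 FPKM in WT and 7.24, 7.86 and 7.64 in sgMyc. The 3 sgMyc libraries were alike, 1.34, 1.45 and 1.41 times the WT mean, and Mb21d1 rose by 0.49 on the log2 scale (SE 0.0823, adjusted p = 0.0128; 0.51 without replicate 3, adjusted p = 0.000214). Tmem173 (chr18:35733678-35740554), which encodes STING, had 9.22, 9.15 and 9.83 FPKM in WT and 16.0, 15.0 and 8.56 in sgMyc. Replicate 3 was below all WT libraries. The log2 fold change of 0.48 did not pass (SE 0.220, adjusted p = 0.197), and was 0.75 without replicate 3 (SE 0.0627, adjusted p = 9.62e-06).

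Interferon beta itself, the main product of these pathways in non-immune cells, was barely detected: Ifnb1 had 0, 0 and 2 counts in WT and 67, 48 and 4 in sgMyc. The libraries with the high sensor levels were those with most Ifnb1 counts. Markers of other cell types were followed in the same libraries. T cell markers (2 of 4 listed genes in the table) summed to at most 0.033 FPKM, Cd4 and Cd8a being at 0 in all WT libraries, and endothelial markers (3 of 3) to 0.157 to 0.568. Macrophage markers (3 of 4) summed to 10.9 to 12.3 FPKM in WT and to 29.3, 27.4 and 15.9 in sgMyc, led by Cd14 at up to 22.1, while the macrophage receptor gene Csf1r was at 0 to 0.0523. Fibroblast markers (7 of 7) summed to 120 to 139 in WT and to 453, 454 and 178 in sgMyc. Col3a1 led, with 21.5 to 28.0 in WT and 229, 229 and 25.1 in sgMyc. In replicate 3 Thy1 was at its highest (57.5) and Col1a1 at its lowest (0.0964). Mitochondrially encoded transcripts (9 of 9) summed to 23000 to 25600 in WT and 17000, 16100 and 14500 in sgMyc. The part of these shifts in the sensor levels was not tested. In bulk libraries a larger share of expressing cells and more RNA per cell cannot be told apart.

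The second comparison asked what the guide against Nat10, the enzyme that acetylates cytidine in RNA, did to the same genes. Tmem173 mRNA fell 2.83-fold, the adaptor Mavs rose 1.38-fold, and the sensors Ddx58 and Eif2ak2 and the editor Adar fell 1.22- to 1.42-fold. Of the 6 members with a mean of at least 1 FPKM, limma (2 against 2) called 5, 4 lower and 1 higher, but 63.3% of the 11735 genes tested were called in this comparison (29.6% lower, 33.7% higher). The median log2 fold change was -0.27 over the 6 and 0.014 over all genes tested. Groups did not overlap in any of the 6, nor in 82.3% of all genes tested.

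Tmem173 had 12.8 and 12.3 FPKM in WT and 4.61 and 4.28 with the guide. The groups were far apart, and the log2 fold change was -1.32 on the log2(FPKM + 1) scale (SE 0.0524, adjusted p = 4.31e-05). Mb21d1, which acts one step earlier, had 5.71 and 5.44 in WT and 6.54 and 5.83 in sgNAT10; the groups did not overlap, and the difference of 0.13 did not pass (SE 0.0656, adjusted p = 0.148). Mavs rose from 13.1 and 12.8 to 17.7 and 18.2 (log2 fold change 0.44, SE 0.0381, adjusted p = 0.000434). The adaptor and STING thus moved in opposite directions in the same libraries.

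Among the double-stranded RNA binders, Eif2ak2 fell from 7.71 and 7.65 FPKM in WT to 6.37 and 6.22 in sgNAT10 (log2 fold change -0.25, SE 0.0431, adjusted p = 0.00493). Adar fell from 6.29 and 5.99 to 5.03 and 4.28 (-0.34, SE 0.0776, adjusted p = 0.0138). Ddx58 fell from 1.68 and 1.68 to 1.23 and 1.13 (-0.30, SE 0.0758, adjusted p = 0.0197). All 3 differences were small, and 2 of these calls hung on single libraries. Ddx58 no longer passed when WT replicate 1 was left out (log2 fold change -0.30, adjusted p = 0.0976), when WT replicate 2 was (-0.30, 0.0949) or when sgNAT10 replicate 2 was (-0.26, 0.0655), and Adar no longer passed when WT replicate 1 was left out (-0.31, 0.0636).

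The other 3 members in the table were under the 1 FPKM minimum. Ifih1 had 0.363 and 0.40 FPKM in WT (65 and 60 recovered reads) and 0.0924 and 0.197 in sgNAT10 (13 and 26 reads). Tlr3 had 0.657 and 0.596 in WT (75 and 57 reads) and 0.435 and 0.405 in sgNAT10 (39 and 34 reads). Dhx58 had 0.209 and 0.250 in WT (15 and 15 reads) and 0.426 and 0.284 in sgNAT10 (24 and 15 reads). Both sgNAT10 libraries were lower for Ifih1 and Tlr3 and higher for Dhx58. In the edgeR test on recovered reads, which called 67.0% of 13955 genes (33.6% lower), Ifih1 (log2 fold change -1.41, adjusted p = 3.00e-05) and Tlr3 (-0.59, adjusted p = 0.0148) were lower and Dhx58 did not pass (0.63, adjusted p = 0.118). The authors' deposited table gives Ifih1 -1.41 (adjusted p = 0.00194), Tlr3 -0.58 (0.155) and Tmem173 -1.50 (9.74e-29). Over all genes the authors' mRNA values called 7699 of 17379.

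**Figure D3:**
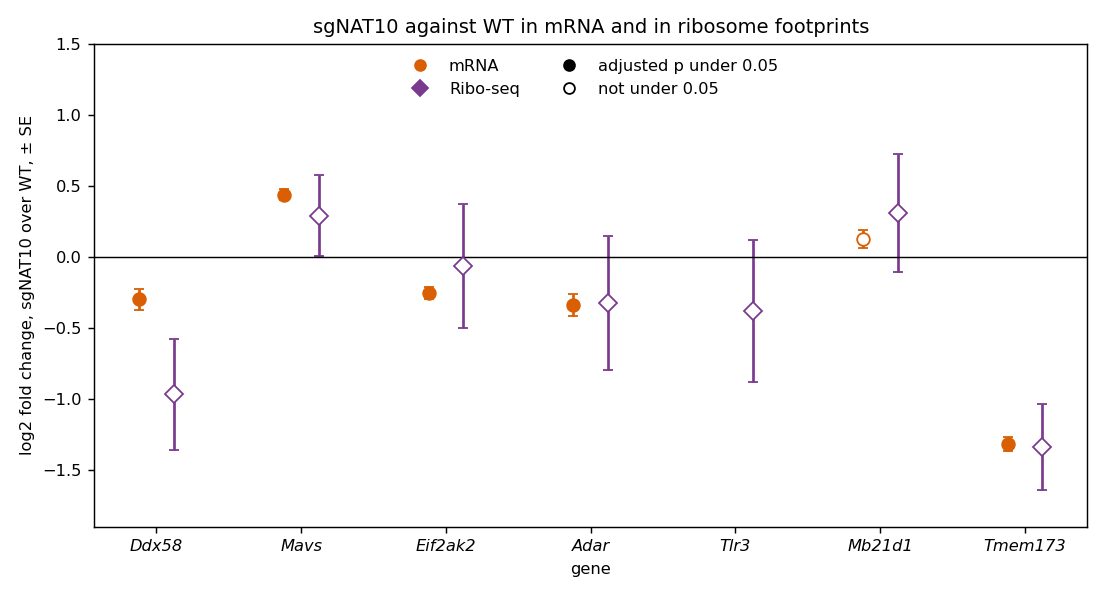
Log2 fold change of sgNAT10 over WT, on the log2(FPKM + 1) scale with its standard error, for mRNA (orange circles) and Ribo-seq (purple diamonds), 2 libraries a group; filled markers have an adjusted p under 0.05. Tmem173 lies at -1.32 in mRNA and -1.34 in Ribo-seq, and the error bars of Ribo-seq are several times those of mRNA. Tlr3 was tested in Ribo-seq only.

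Ribosome footprints on Tmem173 were lower as well. They had 53.2 and 77.4 FPKM in WT (386 and 547 recovered reads) and 19.5 and 31.5 in sgNAT10 (160 and 125 reads). The groups did not overlap, but with limma the log2 fold change of -1.34 did not pass (SE 0.302, adjusted p = 0.0834). It passed in the edgeR test on recovered reads (-1.38, adjusted p = 0.0146) and in the authors' deposited table (-1.38, adjusted p = 4.27e-05). Over all genes the authors' Ribo-seq values called 1658 of 10974. Ddx58 footprints had 5.40 and 7.25 FPKM in WT and 2.11 and 3.45 in sgNAT10, again without overlap (log2 fold change -0.97, SE 0.391, adjusted p = 0.238). The authors' deposited table lists Ddx58 at -1.21 with an adjusted p of 0.0451. Of the 7 members tested limma called 0, against 3.09% of all 9707 genes, with 2 (Ddx58 and Tmem173) at an unadjusted p under 0.05, and edgeR on recovered reads called 1 of 8, against 8.12% of genes. Groups without overlap were found in 51.1% of genes.

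The other footprint levels overlapped between the genotypes. Mavs had 11.4 and 17.1 FPKM in WT and 16.1 and 18.7 in sgNAT10, Eif2ak2 11.5 and 5.16 against 6.19 and 8.84, and Adar 6.45 and 4.17 against 2.48 and 6.07. Mb21d1 had 12.8 and 5.53 in WT and 11.2 and 10.4 with the guide. For Mavs, Eif2ak2 and Mb21d1 the WT libraries lay further apart than the sgNAT10 libraries. Tlr3 (30 and 15 reads in WT, 20 and 5 in sgNAT10) and Ifih1 (10 and 41 reads in WT, 0 and 7 in sgNAT10) rested on few footprints, and neither passed in the edgeR test on recovered reads (adjusted p = 0.805 and 0.528).

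Footprints per mRNA set Tmem173 and Ddx58 apart from the other members. In WT the ratio of mean Ribo-seq to mean mRNA FPKM was 5.20 for Tmem173, above 98.3% of 9200 genes, and 3.77 for Ddx58, above 96.1%. It was 1.65 for Mb21d1, 1.10 for Mavs, 1.09 for Eif2ak2 and 0.865 for Adar, around the median of 1.15 over all genes. The assays were normalized separately, so the ratio has no absolute scale. Both were scaled to the same length of each gene, while footprints come from the translated part. The ratio therefore also depends on how much of a transcript is coding, which was not measured. In sgNAT10 it was 5.73 for Tmem173 and 2.36 for Ddx58. Translational efficiency, tested as the genotype by assay interaction, differed in 0 of 6 members with limma and 0 of 8 with edgeR on recovered reads. In both, 0 members had an unadjusted p under 0.05. Of all genes limma called 0.0326% of 9200, and edgeR called 22. For Tmem173 the interaction was -0.02 (SE 0.339, adjusted p = 0.995) and for Ddx58 -0.67 (SE 0.392, adjusted p = 0.726).

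**Figure D4:**
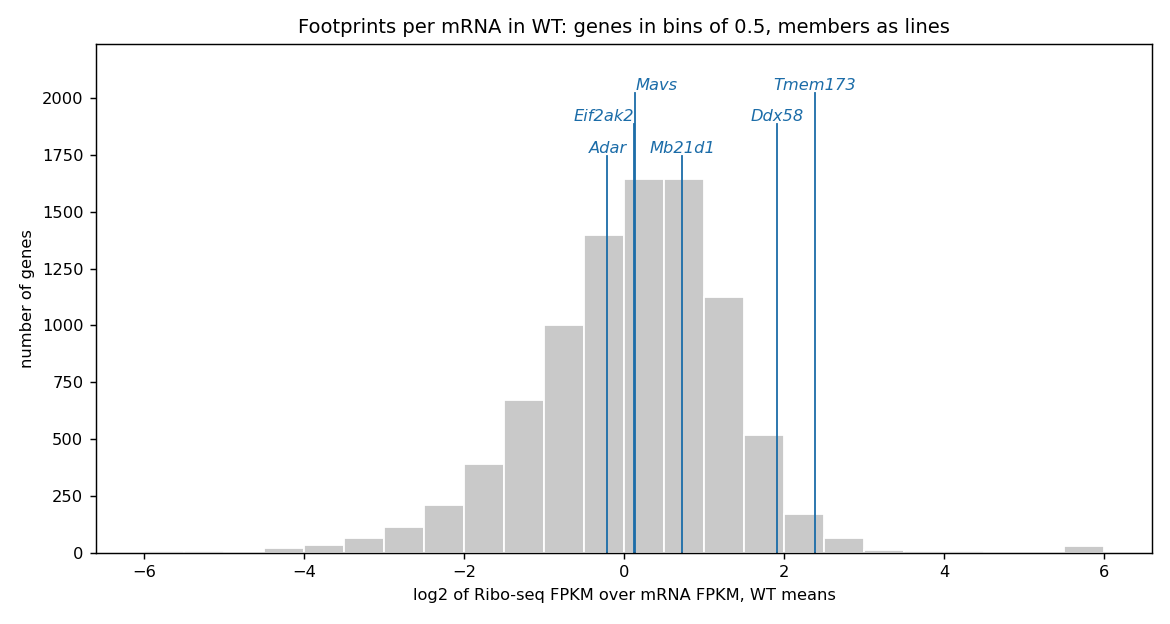
Number of genes by log2 of Ribo-seq FPKM over mRNA FPKM, means of 2 WT libraries each, in bins of 0.5, with 6 members as vertical lines. The 9160 genes with WT footprints are shown, those beyond the axis in the end bins, and Tmem173 and Ddx58 lie in the right tail.

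With a weight for each set, the 2 edits differed in 4 of the 6 genes tested in both mRNA sets, and with equal weights in 1, Tmem173. In a limma model of both sets, each against its own WT, the log2 fold change in sgMyc exceeded that in sgNAT10 by 2.69 for Ddx58 (SE 0.635, adjusted p = 0.0136), 2.31 for Adar (SE 0.509, adjusted p = 0.0100), 1.87 for Eif2ak2 (SE 0.573, adjusted p = 0.0393) and 1.72 for Tmem173 (SE 0.220, adjusted p = 0.000682). Over all 10265 genes 28.4% were called and 9.73% were called in that direction. Mb21d1 (0.29, adjusted p = 0.0643) and Mavs (-0.18, adjusted p = 0.119) did not pass. Without sgMyc replicate 3 all 6 passed, 5 higher in sgMyc and Mavs lower (-0.21, adjusted p = 0.0175), where 59.8% of genes were called, 23.4% higher and 36.5% lower in sgMyc. The call of Eif2ak2 was lost without any one of the other 9 libraries, with an adjusted p of up to 0.0986. With equal weights the adjusted p was 0.00518 for Tmem173, 0.0517 for Adar, 0.069 for Ddx58 and 0.145 for Eif2ak2. That fit called 2153 of all genes, 696 of them higher in sgMyc. Each edit was measured in a set of its own with its own WT libraries, so beyond what those WT libraries account for, edit and set cannot be told apart.

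The genes around the sensors were taken from 7 lists of 112 genes in all: regulators of RIG-I-like receptors, downstream adaptors with kinases and transcription factors, the TLR3 and ZBP1 arms, PKR with the OAS-RNase L system and other double-stranded RNA binders, nucleases that remove the cell's own nucleic acid, regulators of cGAS and STING with other DNA sensors, and the interferon genes. In sgMyc 18 of 89 tested were called higher and 7 lower, and without replicate 3 43 and 30 of 90; in sgNAT10 mRNA 20 of 74 were called higher and 30 lower. Over all genes 16.0% were called in sgMyc (7.11% higher), 53.6% without replicate 3 (26.6% higher) and 63.3% in sgNAT10 mRNA (33.7% higher, 29.6% lower), and the list counts below are to be read against these shares. Listed genes barely detected in WT entered the sgMyc test through their sgMyc counts and could hardly be called lower. The medians of the listed genes were 0.03, 0.13 and -0.06. None of the 19 interferon genes was tested with all 6 sgMyc libraries, and without replicate 3 only Ifnb1 was, and it was called higher. With 0, 0 and 2 counts in WT, Ifnb1 could not have been called lower.

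Among the genes that work beside PKR, 9 of 21 rose in sgMyc and none fell, where 7.11% of all genes rose. Genes barely detected in WT, such as Oas2, could hardly have entered the test without their sgMyc counts. They could hardly have been called lower, so their calls are no separate support. Without replicate 3 12 rose and 6 fell, where 53.6% of all genes were called and 26.6% rose. The 9 were the 8 OAS-family genes of the list (Oas1a, Oas1b, Oas1c, Oas1g, Oas2, Oas3, Oasl1 and Oasl2) and Stau1, which binds double-stranded RNA. Oas2, a synthase of the 2-5A messenger that activates RNase L, had a mean of 0.0224 FPKM in WT and 29.8, 30.4 and 0.778 in the sgMyc libraries (log2 fold change 9.70, SE 1.67, adjusted p = 0.0138). Oas3, of the same family, had 0.0629 in WT and 11.4, 11.4 and 0.376 in sgMyc (6.84, adjusted p = 0.0211), and Oasl2 0.307 against 73.6, 73.8 and 2.51 (7.29, adjusted p = 0.0155). OAS genes are close relatives among which reads may be split, so their single values are uncertain. Without replicate 3 the log2 fold changes were 10.32 for Oas2, 7.45 for Oas3 and 7.90 for Oasl2. Of the 15 regulators of RIG-I-like receptors 3 rose (Trim25, Zc3hav1 and Usp3) and 1 fell (Cyld). Trim25, a ubiquitin ligase for RIG-I, had 8.53 in WT and 52, 50.8 and 14.7 in sgMyc (2.19, adjusted p = 0.0237), and Zc3hav1, an antiviral RNA-binding protein, 11.9 against 33.2, 35.0 and 14.4 (1.21, adjusted p = 0.0460); without replicate 3 they were 2.62 and 1.55. The deubiquitinase gene Cyld fell from 12 to 8.57, 8.39 and 9.27 (-0.45, adjusted p = 0.0166).

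Downstream of the sensors 3 of 20 rose (Irf7, Irf3 and Ikbkg) and 2 fell, where 16.0% of all genes were called and 7.11% rose. Irf7, the transcription factor that amplifies interferon production, had 0.513 FPKM in WT and 113, 113 and 4.20 in sgMyc (log2 fold change 7.17, SE 1.27, adjusted p = 0.0154). Tbkbp1 and Tank, scaffolds of the kinase TBK1, fell from 11.8 to 7.09, 7.14 and 6.37 (-0.78, adjusted p = 0.0035) and from 6.12 to 3.94, 3.87 and 3.71 (-0.67, adjusted p = 0.00912). Here replicate 3 was with the other sgMyc libraries, and without it the log2 fold changes were -0.70 and -0.62, and 7.77 for Irf7. Of the cGAS and STING list 3 of 15 rose and 1 fell (Prkdc, a kinase of DNA repair). Ifi204 and Ifi203, from a family of near relatives whose reads may be shared, had 1.66 and 0.0698 in WT against 63.2, 59.6 and 5.73 and against 16.4, 16.7 and 0.352 in sgMyc (4.67, adjusted p = 0.0179; 7.24, adjusted p = 0.0238), and the inflammasome sensor gene Aim2 had 4.65 against 17.7, 18.3 and 14.4 (1.85, adjusted p = 0.000804). Without replicate 3 these were 5.24 for Ifi204, 7.86 for Ifi203 and 1.98 for Aim2. Of the nucleases 1 of 13 was lower (Enpp1, which breaks down the messenger made by cGAS) and none higher, and without replicate 3 6 were higher and 5 lower, among them Pnpt1 (log2 fold change 1.47), Samhd1 (1.05) and Rnaset2a (0.68), the last with a near-identical copy.

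The list of the TLR3 and ZBP1 arms leaves out Tlr3 and Zbp1 themselves, and none of its other genes was called higher in either edit with all libraries. Ripk3, the kinase through which ZBP1 triggers necroptosis, fell in both: from a mean of 6.92 FPKM to 0.709 and 0.541 in sgNAT10 mRNA (log2 fold change -2.28, SE 0.0990, adjusted p = 5.36e-05), from 32.8 to 1.71 and 0.759 in Ribo-seq (-3.95, adjusted p = 0.00677), and from 7.43 to 1.53, 1.79 and 1.52 in sgMyc (-2.20, SE 0.123, adjusted p = 0.000539; -2.12 without replicate 3). In sgMyc Zbp1 and Ripk3 thus moved in opposite directions, and replicate 3 had low Ripk3 like the other sgMyc libraries. Hsp90b1, a chaperone of Toll-like receptors, fell from 293 to 214 and 215 in sgNAT10 mRNA (-0.45, adjusted p = 0.000122) and from 707 to 320, 310 and 465 in sgMyc (-0.95, adjusted p = 0.0186; -1.13 without replicate 3). Mlkl, the pore-forming protein of necroptosis, had 46.7 in WT and 61.5, 57.8 and 51.0 in sgMyc and was called only without replicate 3 (0.39, adjusted p = 3.03e-05). Ticam1, the adaptor of TLR3, fell from 5.49 to 4.25 and 4.0 in sgNAT10 mRNA (-0.34, adjusted p = 0.00318).

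**Figure D5:**
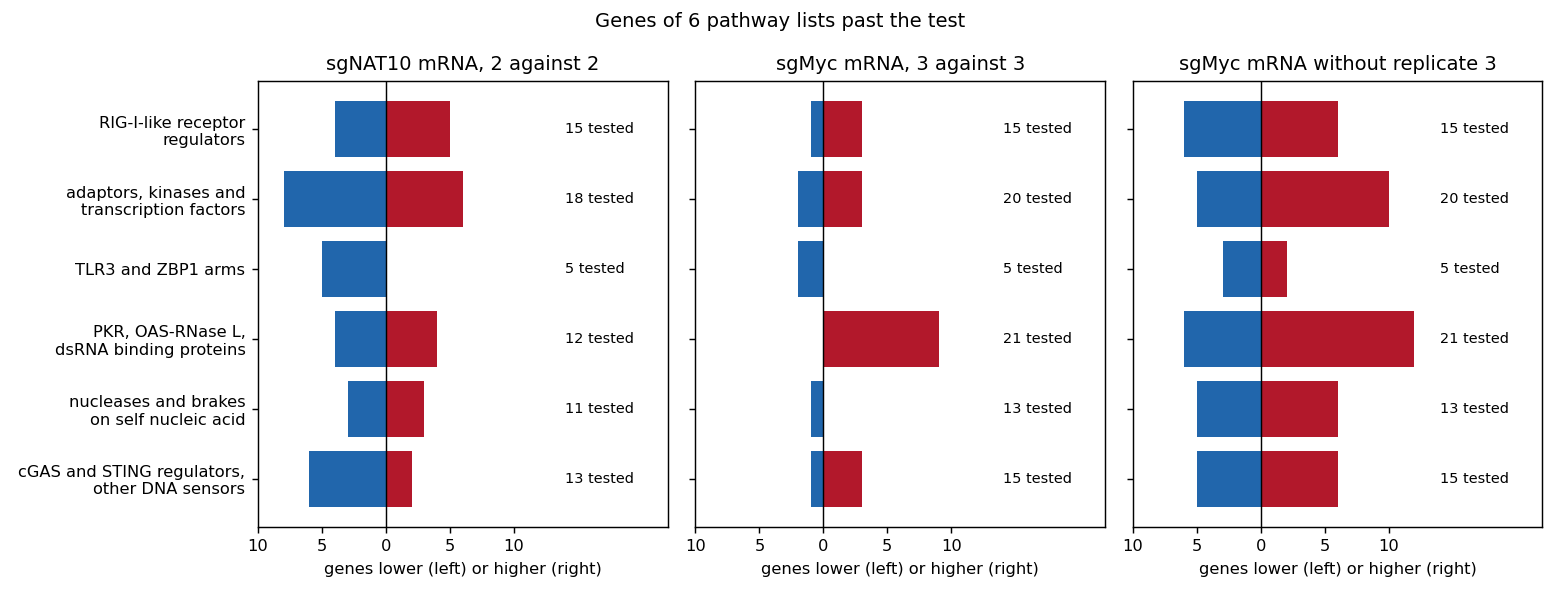
Genes of 6 pathway lists past the test (adjusted p under 0.05), lower to the left in blue and higher to the right in red, in sgNAT10 mRNA, in sgMyc mRNA and in sgMyc mRNA without replicate 3; the number tested stands beside each bar. With all 6 sgMyc libraries 9 of 21 genes of the PKR and OAS list are higher and none lower, and in sgNAT10 mRNA all 5 genes tested of the TLR3 and ZBP1 arms are lower. Some of the 9, such as Oas2, were barely detected in WT and could hardly have been called lower.

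In sgNAT10 mRNA the lists split both ways. All 5 genes tested of the TLR3 and ZBP1 arms fell, and of the cGAS and STING list 6 of 13 fell and 2 rose, where 29.6% of all genes fell and 33.7% rose. Aim2 rose from 1.26 to 6.90 and 6.82 FPKM (log2 fold change 1.80, SE 0.0662, adjusted p = 3.57e-05), whereas Pqbp1, a cofactor of cGAS, fell from 22.1 to 12.5 and 12 (-0.80, adjusted p = 7.75e-05), and G3bp1, a stress granule protein that helps cGAS bind DNA, from 66.8 to 51.6 and 51.4 (-0.37, adjusted p = 0.000251). Tbkbp1 fell from 11.7 to 3.46 and 3.60 (-1.49, adjusted p = 3.85e-05) and Ikbkb from 2.81 to 1.47 and 1.56 (-0.60, adjusted p = 0.00096), while the death protease gene Casp8 rose from 9.57 to 16 and 16.2 (0.69, adjusted p = 0.000141). Trim25 fell from 12.6 to 5.63 and 6.34 (-0.96, adjusted p = 0.000163), and Pcbp2 and Mex3c, which regulate MAVS and RIG-I, rose by 0.36 and 0.32. Adarb1 (-0.74) and Adat1 (-0.55), which encode other adenosine deaminases of RNA, and Eif2s1 (-0.37), which encodes the PKR substrate, fell, as did Pnpt1 (-0.51) and Banf1 (-0.51), while Dnase2a rose (0.31). In Ribo-seq 1 of 67 was called higher besides Ripk3 lower: Tmem203 was listed at 0 in both WT libraries and had 21.0 and 28.5 in sgNAT10.

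Fibroblast markers summed to 22.1 and 22.8 FPKM in the WT and 97.3 and 96.4 in the sgNAT10 mRNA libraries. The list split. Thy1 (1.04 and 1.35 against 42.6 and 40.9), Col1a2, Pdgfra and Dcn were higher in sgNAT10, and Col3a1, Col1a1 and Pdgfrb were lower. Macrophage markers summed to 5.49 and 6.0 against 13.7 and 12.2, of which Cd14 made up most in sgNAT10. Mitochondrially encoded transcripts summed to 18200 and 16000 against 15200 and 13900. Endothelial and epithelial markers summed to at most 0.262. Their part in the results was not tested.

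For each of the 6 members tested in both mRNA sets, the gene with the most similar pattern was the one with the smallest root mean square difference in log2(FPKM + 1), centred on the WT mean of its set, over the 10 mRNA libraries and 10265 genes. It was Helz2 for Ddx58 (0.0925), Pdgfrb, one of the fibroblast markers, for Adar (0.0979), Gm6548, a predicted gene, for Eif2ak2 (0.168), Rhbdf2 for Tmem173 (0.147), Map3k10 for Mavs (0.0328) and AU020206 for Mb21d1 (0.0603). Helz2 had 2.47 and 2.39 FPKM in WT and 1.71 and 1.62 in sgNAT10, and 5.67, 5.77 and 5.94 in WT and 66.8, 68.1 and 10.8 in sgMyc, with replicate 3 far below the other sgMyc libraries as for Ddx58. Rhbdf2 had 2.54 and 2.47 against 0.767 and 0.574 in the sgNAT10 set, and 2.75, 2.77 and 3.18 against 5.98, 5.62 and 3.20 in the sgMyc set. These likenesses describe 10 libraries that share 2 sets of WT.

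Adar was the only member with a peak in the acRIP table, which lists 1358 peaks in 1066 genes. The peak covered chr3:89738019-89738139 (mm10), 121 bases on the plus strand of Adar, which the table classes as coding sequence. Its fold enrichment of precipitate over input, the authors' value, was 1.87, where the median peak had 1.77. The peak's own FDR was 0.628, while 80.0% of peaks had one under 0.05. The authors' deposited table gives a log2 difference between the genotypes of -1.96 with an FDR of 0.0295, and 65.3% of peaks had an FDR of the difference under 0.05. Whether WT or sgNAT10 is the numerator of that difference is not stated in the header, and with 1 library of each kind there is no replicate check.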

How the data were processed

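TC1 mRNA was compared between edited and WT libraries in 2 sets, with Ribo-seq and acRIP-seq for sgNAT10. The submitters' processing notes name FastQC, Trim Galore, Bowtie2, featureCounts and build mm10; versions, peak caller and tests are not given in the sources used here. Per the file headers, the authors deposited raw counts and FPKM for the sgMyc set, FPKM for the sgNAT10 mRNA and Ribo-seq libraries with log2 fold changes and p-values, and for acRIP peaks the fold enrichment, a log2 difference, p-values and log10 scores of p or FDR.

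FPKM was tested with limma 3.58.1 as log2(FPKM + 1) at a mean of at least 1 FPKM, counts with edgeR 4.0.16 (quasi-likelihood, filterByExpr, TMM) in R 4.3.3, all with Benjamini-Hochberg adjustment over all genes at a threshold of 0.05. Fold changes of FPKM on this scale understate those of low genes. Translational efficiency and the difference between edits were interaction terms in limma with a weight for each assay or set. Whole reads recovered from the deposited FPKM (tolerance 1e-05), found for 99.994% of mRNA and 99.991% of Ribo-seq genes, were tested with edgeR, which called 9348 and 812 genes. DESeq2 1.42.0 served as an alternative, with other filters, scalings, pseudocounts and left-out libraries. Fits were tested on simulated data. acRIP values are the authors' and were only described.

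Named genes are the 10 members, Nat10, Myc, Ifnb1, up to 3 called genes of each pathway list with the largest log2 fold change, a higher group mean of at least 1 FPKM and groups that do not overlap, and the gene nearest in pattern to each member. Usp3, Irf3, Ikbkg, Prkdc, Enpp1, Stau1 and the other OAS genes were named after their values were seen. Members and lists were chosen with earlier results of these data known.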

Additional observations from a re-analysis of the deposited data

Results flagged for a closer look

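In a limma test of the difference itself, with each edit against its own WT and a weight for each set, the 2 edits differed in Ddx58, Eif2ak2, Adar and Tmem173, a test that called 28.4% of all genes. The log2 fold change in sgMyc minus that in sgNAT10 was 2.69 for Ddx58 (adjusted p = 0.0136), 1.87 for Eif2ak2 (adjusted p = 0.0393), 2.31 for Adar (adjusted p = 0.0100) and 1.72 for Tmem173 (adjusted p = 0.000682). With equal weights, where 2153 of all genes were called, only Tmem173 passed (adjusted p = 0.00518, against 0.069, 0.145 and 0.0517 for Ddx58, Eif2ak2 and Adar). Eif2ak2 also did not pass with no filter on low values (adjusted p = 0.0724) or without any one of 9 of the 10 libraries. Without sgMyc replicate 3 the differences were 3.50, 2.61, 2.95 and 1.98.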

How the results depend on the processing

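Leaving out 1 library at a time, members called ranged from 3 to 5 in sgNAT10 mRNA (6078 to 6890 genes), 0 to 10 in sgMyc (680 to 9368 genes, against 2682 with all) and 3 to 6 in the difference between edits (1714 to 6138, against 2915), and genes called from 0 to 9 in Ribo-seq (300 with all) and 0 to 6 in translational efficiency (3 with all). In sgMyc limma on FPKM called 1 member (1835 genes). With equal weights 1 member passed in the difference between edits, where 2153 genes were called. Equal weights called 24 genes in translational efficiency, where pseudocount 0.1 gave 7 and edgeR 22. In Ribo-seq 87 genes were called with no trend, 812 with edgeR, and edgeR called 1 member. Same-numbered WT and edited libraries of a set correlated at -0.0181 to 0.0245 in their deviations from group means. This cannot show whether they were prepared together, and same-numbered mRNA and Ribo-seq libraries were not compared. With the replicate block 1 member was called in Ribo-seq (240 genes) and 1 in sgMyc (1082 genes), and 7 genes in translational efficiency. The cause of these shifts was not tested. Uncalled values that changed sign with a library left out were, in Ribo-seq, Eif2ak2 (-0.58 to 0.45), Adar (-0.83 to 0.19) and Mb21d1 (-0.23 to 0.85), and in translational efficiency Mavs (-0.42 to 0.13), Eif2ak2 (-0.32 to 0.70), Adar (-0.49 to 0.53), Mb21d1 (-0.36 to 0.73) and Tmem173 (-0.35 to 0.31). With pseudocount 0.1 the translational efficiency of Adar was -0.01 and of Tmem173 0.11, and with edgeR that of Tmem173 was 0.14. A stricter FDR on acRIP peaks leaves no peak in Adar. The few Ribo-seq reads and 2 libraries a group limit what footprints can show.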
